A study of Mus musculus with 6 samples.

Results

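The tumour suppressor p53 and 7 of its well-known target genes, namely Trp53 itself, Mdm2, Ccng1, Cdkn1a, Phlda3, Bbc3, Pmaip1 and Zmat3, were followed across single cells of mouse stembryos. The 8 genes were taken by symbol from a deposited table of 25595 genes and 26968 cells. They were given by name, with no threshold on their values, but were chosen with earlier results of these data known. All 8 passed the filter on low counts in each main comparison, where Cdkn1a itself was left out of the test that divided cells by it.

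Stembryos, also called gastruloids, are aggregates of mouse embryonic stem (mES) cells that elongate and form trunk tissues after a pulse of the Wnt agonist Chiron on the third day. All samples were wild type (wt), came from mES cells and carried no further treatment, so no group was exposed to a p53 activator. Whole stembryos were collected 120 h after aggregation in 2 libraries and 96 h after aggregation in 2 libraries, and from 1 more pool at 120 h the anterior and posterior ends were cut apart and made into separate libraries. Each library held cells of many pooled stembryos of 1 genotype, and at 120 h stembryos that had not elongated or showed signs of apoptosis were not collected, while at 96 h none were left out. The last point bears on genes of cell death, because the aggregates most marked by it were not part of the 120 h samples.

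The libraries held between 2649 and 7887 cells and between 24303317 and 117580506 UMIs (unique molecular identifiers, each standing for 1 captured transcript), with medians of 8723 to 22811 UMIs per cell. Whole replicate 1 of both times was made in the same batch with V3 chemistry, whole replicate 2 of both times in another batch with V3.1 chemistry, and the dissected parts in a batch of their own, so replicate and batch cannot be told apart. A total of 75 cell barcodes occurred in more than 1 library, which touched 150 cells. The authors' annotation divided the cells into 12 clusters (NMP, neuromesodermal progenitor, PSM, presomitic mesoderm). Genes were ranked here by their level in a cluster over all other cells, which for an NMP cluster include the other NMP clusters. The 10 leading genes held T and Wnt3a in NMPs A, Pax6 and Irx3 in Spinal cord B, and Tbx6 in Early PSM. They held Ripply2 in Determination front, and Meox2 and Pax1 in Somite B. In none of these clusters was another listed marker of its own type among the 10. NMPs A also had the PSM marker Cyp26a1, and Late PSM had Dll3, a PSM marker, and Mesp2, a determination front marker. The label was less well borne out for NMPs B, led by genes such as Wnt8a, Cdh1 and Pou5f1, and for NMPs C, led by Hoxc10 and Hoxa10, since none of the 7 NMP markers was among the 10 leading genes of either. Spinal cord A had Sox2 but none of the 8 spinal cord markers among its 10 leading genes.

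The p53 protein is a transcription factor that is made all the time and kept low, because Mdm2, a ubiquitin ligase, marks it for destruction. Stress such as DNA damage releases p53 from this control, and the rise in p53 is then mostly one of protein, not of Trp53 mRNA. Active p53 switches on Mdm2, which closes a negative feedback loop, and genes that act in different arms of the response. Cdkn1a encodes p21, an inhibitor of cyclin-dependent kinases that halts the cell cycle, and Ccng1 encodes cyclin G1, which works with a phosphatase on Mdm2. Bbc3 (Puma) and Pmaip1 (Noxa) encode BH3-only proteins that trigger mitochondrial cell death, Phlda3 encodes a repressor of the kinase Akt, and Zmat3 encodes a zinc finger protein that binds RNA. In the early mouse embryo p53 is known for its part in cell competition, in which less fit cells are removed.

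The members lie apart in the genome except that Ccng1 and Trp53 share chromosome 11. In the GRCm38 (mm10) build with GENCODE vM21 gene models, Cdkn1a spanned chr17:29090976-29100727 on the plus strand, Ccng1 chr11:40748552-40755311 on the minus strand, Trp53 chr11:69580359-69591873 on the plus strand and Bbc3 chr7:16308393-16318205 on the plus strand. Phlda3 spanned chr1:135766119-135769136 on the plus strand, Mdm2 chr10:117688875-117710758 on the minus strand and Zmat3 chr3:32334792-32366014 on the minus strand. The table also held rows for Trp53-ps, a pseudogene, and for Wrap53, which starts head to head with Trp53, so reads that the counting could not place between them are a limit for Trp53.

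The p53 protein binds pairs of decamers, and the consensus was taken here as a pair with no spacer, together 20 bases. The 250 bases before each RefSeq start were searched on both strands for the stretch with the fewest mismatches to this p53 consensus. The windows of Cdkn1a and Ccng1 are shown because both genes move together in the cells described below and both held a stretch with 1 mismatch, which only 0.0761% of 32851 promoter windows of this length did (25 windows). They are RefSeq sequence of GRCm38.p6, read 5′ to 3′ towards the start, with the best match in capitals.
Cdkn1a, upstream start, chr17:29090729-29090978, plus strand: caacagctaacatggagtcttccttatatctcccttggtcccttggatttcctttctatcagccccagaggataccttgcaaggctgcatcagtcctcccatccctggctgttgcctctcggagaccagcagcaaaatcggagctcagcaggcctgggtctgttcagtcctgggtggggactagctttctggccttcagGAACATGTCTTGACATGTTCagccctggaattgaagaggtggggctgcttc
Ccng1, chr11:40755287-40755536, minus strand: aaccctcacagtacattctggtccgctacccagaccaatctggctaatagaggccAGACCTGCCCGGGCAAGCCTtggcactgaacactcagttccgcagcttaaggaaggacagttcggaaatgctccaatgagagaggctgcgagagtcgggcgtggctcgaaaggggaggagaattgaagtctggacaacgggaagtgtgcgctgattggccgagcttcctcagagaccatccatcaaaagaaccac

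In Cdkn1a the match covered bases 51 to 32 before the start, and in Ccng1 bases 195 to 176 before it. The best stretches of Bbc3 and Trp53 had 3 mismatches, a count that 5.32% of windows reached or went below, and lay 97 to 78 and 75 to 56 bases before their starts. They are given for comparison with the matches above.
Bbc3, first start, plus strand: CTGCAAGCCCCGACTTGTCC
Trp53, plus strand: GGACTTGCCCTTACTTGTTA
The windows of Phlda3 and Mdm2 came no closer than 5 mismatches, a count that 71.1% of windows reached or went below, and the same held for the second Cdkn1a start. A match describes letters only, and its absence in these windows says nothing on binding elsewhere. It also says nothing on decamers set apart by a spacer, which were not searched. No promoter result is given for Pmaip1 and Zmat3.

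Levels are given below as CPM, the UMIs of a gene per 1000000 UMIs of the summed cells, and changes as log2 fold changes with their standard errors from edgeR's quasi-likelihood test on the same sums after TMM scaling. The UMIs come from the 3′ ends of transcripts and were not divided by length, so levels are compared between samples for 1 gene and not between genes. Over the 6 libraries Trp53 averaged 202 CPM, Ccng1 130 CPM, Cdkn1a 90.8 CPM, Phlda3 88.6 CPM, Zmat3 50.8 CPM, Mdm2 43.0 CPM and Bbc3 32.7 CPM. Pmaip1 averaged 4.62 CPM and was near the limit of detection in many clusters.

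Between whole stembryos at 120 h and at 96 h no member passed the test, although Cdkn1a and Phlda3 were lower in both 120 h libraries. Trp53 was present at 188 and 200 CPM in the 120 h libraries, against 201 and 219 CPM in the 96 h libraries, replicates 1 and 2 in turn. Cdkn1a had 88.4 and 92.1 CPM at 120 h, against 122 and 107 CPM at 96 h, and Phlda3 had 80.2 and 60.9 CPM at 120 h, against 111 and 135 CPM at 96 h. For these 3 of 8 genes both 120 h libraries were below both 96 h libraries, as for 15.1% of the 18114 genes tested. The other 5 overlapped between the times. Ccng1 had 143 and 152 CPM at 120 h, against 126 and 170 CPM at 96 h, and Zmat3 had 47.2 and 63.1 CPM at 120 h, against 47.4 and 70.1 CPM at 96 h. Mdm2 had 44.9 and 39.1 CPM at 120 h, against 45.6 and 38.2 CPM at 96 h, Bbc3 had 34.2 and 32.4 CPM at 120 h, against 34.8 and 27.0 CPM at 96 h, and Pmaip1 had 5.57 and 5.87 CPM at 120 h, against 3.22 and 9.96 CPM at 96 h. Replicate 2, the V3.1 batch, was higher than replicate 1 for Trp53, Ccng1, Pmaip1 and Zmat3 and lower for Mdm2 and Bbc3 at both times.

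In the edgeR test 0 of the 8 genes passed an adjusted p of 0.05, where 0.845% of 18114 genes did, and 2 of the 8 had an unadjusted p under 0.05, beside 15.1% of all genes. The changes were -0.43 ± 0.16 (SE, n = 2 libraries each) for Cdkn1a, with an adjusted p of 0.311, and -0.87 ± 0.21 for Phlda3, with an adjusted p of 0.145. DESeq2 called Phlda3 alone among the 8, with an adjusted p of 0.00473, and so did edgeR without the filter on low counts (0.0155). When the shared batch of same-numbered libraries entered the edgeR fit as a block, Cdkn1a (-0.43, adjusted p = 0.0214) and Phlda3 (-0.88, adjusted p = 0.00613) passed, among 17% of all genes. Over the 8 genes the median change without the block was -0.18, beside 0.016 over all genes tested. Of 24 further p53 targets tested, 0 passed and 6 had an unadjusted p under 0.05. In sums over all cells, fewer cells of a type and less RNA per cell cannot be told apart, and the cell types differed between the times: 5 of 8 somite markers and 2 of 8 spinal cord markers were higher at 120 h, while 1 of 7 NMP markers, 1 of 7 PSM markers and 1 of 7 endoderm markers were lower.

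**Figure D1:**
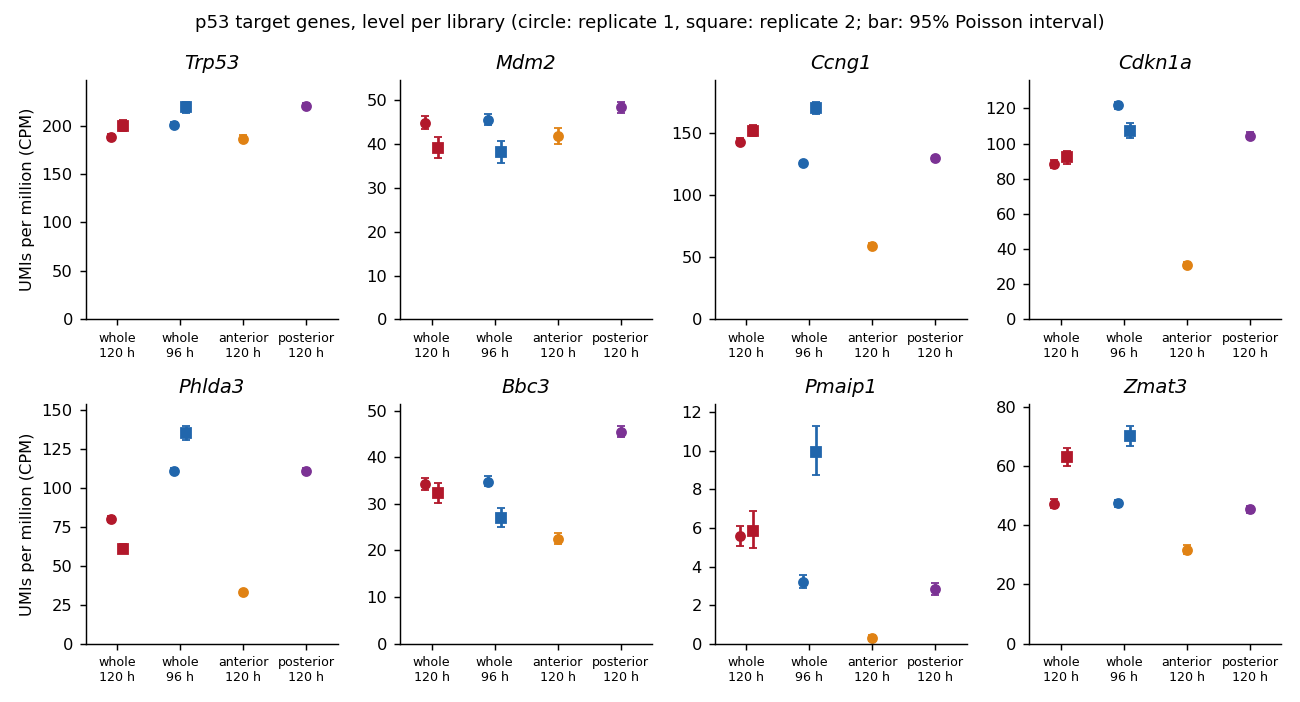
Level of each p53 target gene in each library in CPM, with whole stembryos at 120 h and 96 h and the anterior and posterior part at 120 h along the horizontal axis. Circles are replicate 1, squares replicate 2, and bars are exact 95% Poisson intervals, which cover counting error only. Cdkn1a and Phlda3 at 120 h lay below their 96 h levels in whole stembryos, and the anterior part was lowest for all 8 genes except that Mdm2 was lower in whole replicate 2 of both times.

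Within the classes that occurred at both times the pattern was split. Cdkn1a in NMP cells had 113 and 129 CPM at 120 h, against 150 and 114 CPM at 96 h, so the libraries overlapped. In PSM cells it had 92.2 and 110 CPM at 120 h, against 84.6 and 74.2 CPM at 96 h, and both 120 h libraries were above both 96 h libraries. Phlda3 in NMP cells had 111 and 85.4 CPM at 120 h, against 128 and 150 CPM at 96 h, whereas in PSM cells it had 93.6 and 79.9 CPM at 120 h, against 88.3 and 86.3 CPM at 96 h. The clusters behind these classes changed with time: the NMP cells were mainly NMPs C at 120 h, but mainly NMPs A in replicate 1 and NMPs B in replicate 2 at 96 h, and the PSM cells were mainly Late PSM at 120 h and Early PSM at 96 h.

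Neither class alone gave a call among the 8 genes, in NMP cells beside 0.00642% of all genes called and in PSM cells beside 0.433%. At an unadjusted p under 0.05 there was 1 of the 8 in each, beside 11.6% of all genes in NMP cells and 9.87% in PSM cells, Phlda3 in NMP cells (-0.59 ± 0.19, adjusted p = 0.345) and Pmaip1 in PSM cells (1.56 ± 0.60, adjusted p = 0.438). DESeq2 called 0 of the 8 in either class, and the block moved these 2 to adjusted p-values of 0.0551 and 0.0540, while without the filter Phlda3 passed in NMP cells (-0.58, adjusted p = 0.0483). Pmaip1 in PSM cells was at 2.55 and 4.56 CPM at 120 h, against 0.835 and 1.33 CPM at 96 h.

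The time changes of the classes were then compared with each other. The change of Cdkn1a in PSM cells exceeded that in NMP cells by 0.44 ± 0.10 on the log2 scale (edgeR interaction, adjusted p = 0.0297), and it was the only 1 of the 8 to pass, beside 1.56% of all genes. Phlda3 differed by 0.42 ± 0.11 with an adjusted p of 0.0749, and it passed with no normalization factors (0.0419), without the filter (0.0167) and without whole replicate 1 at 96 h (0.56, adjusted p = 0.00162). The Cdkn1a call was lost in DESeq2 (adjusted p = 0.306) and when whole replicate 1 at 120 h (0.436), whole replicate 2 at 120 h (0.130) or whole replicate 1 at 96 h (0.308) was left out. Among 23 further targets, Btg2, an antiproliferative factor, and Ddit4, an inhibitor of mTOR signalling, also differed, by 1.11 ± 0.19 and 0.96 ± 0.13. The immediate early gene Jun, which is not a member of that list, differed by 1.19 ± 0.21.

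In the dissected pool the anterior part held less mRNA of the 8 genes than the posterior part. Cdkn1a had 30.9 CPM in the anterior part (95% exact Poisson interval 29.4 to 32.4) and 104 CPM in the posterior part (103 to 106). Phlda3 had 33.0 CPM in the anterior and 111 CPM in the posterior part, Ccng1 59.5 CPM and 130 CPM, Bbc3 22.5 CPM and 45.5 CPM, and Zmat3 31.7 CPM and 45.4 CPM. Pmaip1 had 15 UMIs (0.277 CPM) in the anterior part and 331 UMIs (2.84 CPM) in the posterior part. Mdm2 and Trp53 were closer, at 41.8 CPM and 48.4 CPM and at 186 CPM and 220 CPM. With 1 library a part there was no test, and the parts held different cells: 1881 Somite A and 1757 Somite B cells made up most of the 3944 anterior cells, while Spinal cord A was the largest posterior cluster.

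In Determination front, which was found in both parts, most members had the other order. Somite A (68 posterior cells) and Spinal cord A (21 anterior cells) had few cells in 1 part and are not compared here. In Determination front cells, Cdkn1a had 94.7 CPM in the anterior part (268 cells) and 67.1 CPM in the posterior part (1140 cells), and Bbc3 had 48.1 CPM and 22.3 CPM. Both genes were higher in the anterior cells, with intervals of 85.9 to 104 against 63.2 to 71.1 CPM for Cdkn1a and 41.9 to 55.0 against 20.1 to 24.7 CPM for Bbc3. Ccng1 (95.8 CPM in the anterior and 80.2 CPM in the posterior part), Phlda3 (65.0 and 54.1 CPM), Zmat3 (41.9 and 35.1 CPM) and Trp53 (226 and 207 CPM) also had more CPM in the anterior cells. These smaller differences come from 1 library a part, and no test was made. Mdm2 was not, with 47.2 CPM in the anterior and 56.4 CPM in the posterior part, and Pmaip1 had 2 and 14 UMIs.

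Across the clusters at 120 h, Cdkn1a and Phlda3 spanned a wide range. Phlda3 was lowest in Somite B in each of 3 pools, and Cdkn1a in Somite B in 2 of 3 pools and in Spinal cord B in whole replicate 1. For the 3 pools (whole replicate 1, whole replicate 2 and the dissected pool with its parts summed), Cdkn1a had 53, 28.3 and 11.8 CPM in Somite B, 69.7, 56.8 and 37.4 CPM in Somite A, and 93.0, 108 and 81.1 CPM in Late PSM. It had 34.0, 69.8 and 85.8 CPM in Spinal cord B, 82.2, 137 and 124 CPM in Spinal cord A, and 113, 129 and 131 CPM in NMPs C. Somite B was below Somite A in each of the 3 pools, and Somite A below Late PSM, and Spinal cord B below Spinal cord A. Phlda3 gave the same order, with 46.9, 31.6 and 18.7 CPM in Somite B, 56.6, 35.1 and 41.0 CPM in Somite A, and 93.8, 79.2 and 91.5 CPM in Late PSM. Over all 30 cluster sums of at least 50 cells, the lowest values of Ccng1, Cdkn1a, Phlda3, Bbc3 and Zmat3 all belonged to Somite B of the anterior library.

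Trp53 itself varied less, between 153 CPM in Spinal cord B of whole replicate 1 at 120 h and 243 CPM in NMPs A of whole replicate 2 at 96 h, and Mdm2 between 31.6 and 56.4 CPM. The small Pluripotent/PGC cluster stood outside this range, with Trp53 at 460 CPM in 28 cells of the posterior part and 343 CPM in 35 cells of whole replicate 2 at 96 h. Its Cdkn1a levels were 154 and 280 CPM in the same sums. These sums hold few cells, and no test was made.

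**Figure D2:**
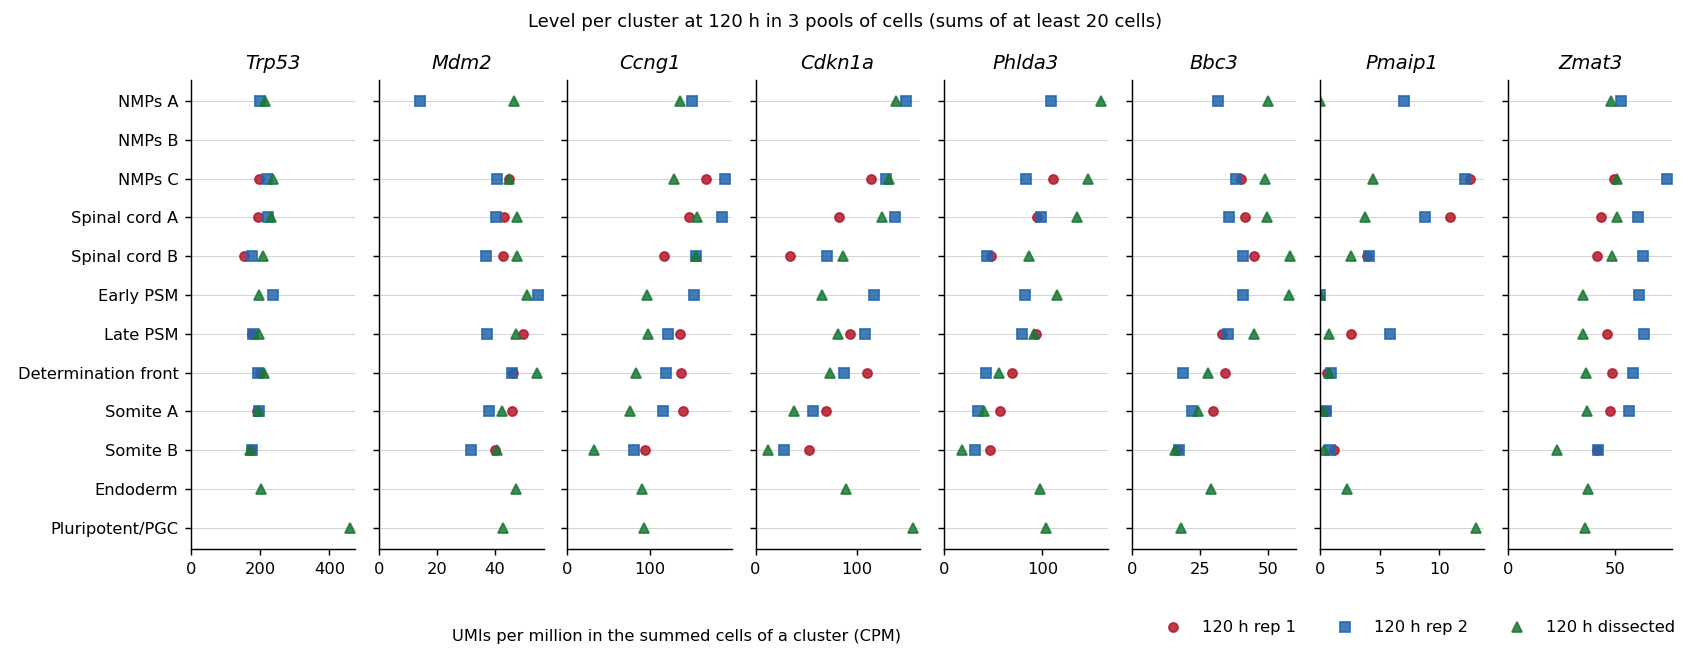
Level of each p53 target gene in CPM (horizontal axis) in the summed cells of each cluster at 120 h (vertical axis), with a point for each of the 3 pools (whole replicate 1, whole replicate 2, dissected pool). Cdkn1a and Phlda3 were low in Somite B and high in NMPs C, whereas Trp53 and Mdm2 lay in a narrow range over the clusters with many cells.

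Steps between pairs of clusters were tested over the 3 pools, with the pool as a block. All clusters with at least 20 cells in a pool entered 1 fit, so the spread behind each p-value came from all of them. The clusters were made by the authors from expression in the same cells, so these tests are not independent of the clustering. Between Spinal cord A and NMPs C 0 of the 8 passed in edgeR, beside 1.41% of all genes, 0 had an unadjusted p under 0.05, and DESeq2 called 0 of the 7 to which it gave an adjusted p. The largest changes were -0.26 ± 0.22 for Pmaip1 and 0.15 ± 0.19 for Ccng1, and Cdkn1a changed by -0.00066 ± 0.29, and a standard error of this size leaves changes like those of the steps below undetected.

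Late PSM differed from NMPs C in Pmaip1. It had 2.59, 5.87 and 0.743 CPM in Late PSM, against 12.6, 12.2 and 4.49 CPM in NMPs C, lower in each pool, although the Late PSM value of whole replicate 2 was above the NMPs C value of the dissected pool. These values rested on 18, 6 and 13 UMIs in Late PSM and on 360, 89 and 83 UMIs in NMPs C. The change of Pmaip1 was -2.24 ± 0.29 (adjusted p = 1.12e-06), and it was 1 of 8 members to pass, beside 14% of all genes. The other members that were lower in all 3 pools did not pass, among them Cdkn1a (-0.44 ± 0.30, adjusted p = 0.418) and Ccng1 (-0.43 ± 0.19, adjusted p = 0.170). Without whole replicate 1 Cdkn1a (adjusted p = 0.0184), Ccng1 (0.0184) and Zmat3 (0.00976) passed as well, Ccng1 also without the dissected pool (0.0235) and without the filter (0.0452), and Trp53 with no normalization factors (0.0237). Of 23 further targets 2 rose, Btg2 (1.86 ± 0.14) and Ddit4 (1.72 ± 0.13), and 2 fell, Trp53inp1 (-0.51 ± 0.14) and Xpc (-0.34 ± 0.11). Trp53inp1 encodes a stress-induced protein and Xpc a DNA damage sensor.

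Somite A differed from Late PSM in 3 of 8 members, all lower, beside 13.8% of all genes called lower. Phlda3 fell (-0.91 ± 0.23, adjusted p = 0.00249) with the values given above and no overlap between the clusters. Bbc3 had 29.9, 22.1 and 24.4 CPM in Somite A, against 33.1, 35.2 and 44.8 CPM in Late PSM, a change of -0.50 ± 0.13 (adjusted p = 0.00439). Pmaip1 had 0.477, 0.518 and 0.260 CPM in Somite A, against the Late PSM values above, a change of -2.13 ± 0.45 (adjusted p = 0.000565). The Pmaip1 values rested on only 9, 3 and 7 UMIs in Somite A and on 18, 6 and 13 UMIs in Late PSM. Both BH3-only genes were thus called lower in the main fit of this step, Pmaip1 on few UMIs. Determination front was not part of this step, and steps to and from it were not tested. In the same pool order it had 69.2, 42.9 and 56.4 CPM of Phlda3 and 34.2, 18.8 and 27.8 CPM of Bbc3. Its Pmaip1 was at 0.568, 0.942 and 0.756 CPM (6, 2 and 16 UMIs) and its Cdkn1a at 109, 86.7 and 73.0 CPM. Cdkn1a was lower in each of the 3 pools without overlap but did not pass (-0.71 ± 0.31, adjusted p = 0.0862).

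The dissected pool weighed on this step, because there Somite A came mostly from the anterior library (1881 cells against 68) and Late PSM wholly from the posterior library (1269 cells). Without that pool Bbc3 changed by -0.18 (adjusted p = 0.445), and without whole replicate 2 the adjusted p was 0.0817 for Phlda3 and 0.0525 for Bbc3, while Cdkn1a passed without whole replicate 1 (-0.96, adjusted p = 1.01e-05) and without the filter (0.0122). Of 23 further targets 2 rose and 4 fell, beside 15.1% of all genes called higher and 13.8% called lower. Plk2, a polo-like kinase, rose by 1.54 ± 0.17 and Trp53inp1 by 1.18 ± 0.14, while Btg2 changed by -2.51 ± 0.15 and Ddit4 by -2.04 ± 0.13. Of the other 5 genes for inhibitors of cyclin-dependent kinases, 4 rose, including Cdkn1c (0.92 ± 0.17) and Cdkn1b (0.61 ± 0.13), whereas Cdkn1a had a negative value in this step.

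The last steps of each branch were added after the levels had been seen. Spinal cord B was lower than Spinal cord A in 3 of 8 members, beside 2.96% of all genes called lower. Phlda3 had 47.9, 43.8 and 86.7 CPM in Spinal cord B, against 94.6, 98.8 and 135 CPM in Spinal cord A (-0.92 ± 0.22, adjusted p = 0.00651). Trp53 (-0.32 ± 0.09, adjusted p = 0.0179) and Pmaip1 (-1.02 ± 0.26, adjusted p = 0.0138) also passed, and Cdkn1a, lower in each pool, did not (-0.86 ± 0.30, adjusted p = 0.0892). All of these calls were lost without whole replicate 2 (adjusted p of 0.389 for Phlda3, 0.394 for Trp53 and 0.206 for Pmaip1), and those of Trp53 (0.0931) and Pmaip1 (0.189) also without whole replicate 1, and that of Pmaip1 when cells of high UMI count were left out (0.0533). Cdkn1a passed without the filter (0.00398), without the dissected pool (-1.12, adjusted p = 0.00020) and without whole replicate 1 (0.000398). Bbc3 went the other way in each pool, with 45.0, 41.0 and 58.3 CPM in Spinal cord B. It had 41.4, 35.9 and 49.8 CPM in Spinal cord A and did not pass (0.12 ± 0.13, adjusted p = 0.748).

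Somite B was lower than Somite A in 3 of 8 members, beside 2.04% of all genes called lower. Bbc3 had 16.8, 17.5 and 15.9 CPM in Somite B, against 29.9, 22.1 and 24.4 CPM in Somite A, with no overlap (-0.81 ± 0.15, adjusted p = 0.000544). Ccng1 had 93.8, 80.6 and 32.9 CPM in Somite B, against 140, 116 and 76.2 CPM in Somite A (-0.86 ± 0.21, adjusted p = 0.0101), and Zmat3 changed by -0.52 ± 0.14 (adjusted p = 0.0301). Cdkn1a and Phlda3 were lower in each pool but did not pass (adjusted p of 0.122 and 0.129), but both passed without whole replicate 1, where Cdkn1a changed by -1.76 (adjusted p = 5.65e-08) and Phlda3 by -1.15 (6.19e-05), and without the filter (0.00603 and 0.0129). Without whole replicate 2 the calls of Ccng1 (0.270) and Zmat3 (0.374) were lost, and without the dissected pool that of Zmat3 was lost (-0.26, adjusted p = 0.382). DESeq2 called neither Ccng1 (0.0840) nor Zmat3 (0.107), and with no normalization factors Zmat3 did not pass (0.0591). Of 23 further targets, Plk2, Aen and Bax, the last a direct executor of mitochondrial cell death, were lower in Somite B as well, by -0.83 ± 0.15, -0.49 ± 0.12 and -0.44 ± 0.10.

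Cells that the authors' annotation placed in phase G2M held less mRNA of several members than cells in phase G1, relative to all their mRNA. Over 5 pools (whole replicates 1 and 2 at 120 h, the dissected pool, whole replicates 1 and 2 at 96 h), Cdkn1a had 78.7, 86.0, 69.1, 107 and 96.6 CPM in G2M cells, against 94.9, 106, 95.3, 124 and 120 CPM in G1 cells. It was lower in G2M in 5 of 5 pools, although the pools differed more than the phases. The change was -0.38 ± 0.04 (edgeR with the pool as a block, adjusted p = 1.21e-06). In all, 5 of 8 members passed with a negative change, beside 14.9% of all genes called lower.

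Phlda3 changed by -0.32 ± 0.04 (adjusted p = 2.18e-05), Bbc3 by -0.25 ± 0.04 (adjusted p = 0.000403) and Mdm2 by -0.21 ± 0.04 (adjusted p = 0.000877), each lower in 5 of 5 pools. Trp53 passed narrowly (-0.08 ± 0.03, adjusted p = 0.0454) with a lower CPM in G2M in only 3 of 5 pools. It did not pass in DESeq2 (0.055), without the filter (0.123), in PSM cells alone (0.109), on leaving out any pool but whole replicate 2 at 96 h (0.0589 to 0.224) or without normalization factors, where it changed by -0.02 (0.671). Ccng1 (-0.04 ± 0.03) and Zmat3 (-0.09 ± 0.04, adjusted p = 0.0663) did not pass, though Zmat3 did with RLE factors (0.0362). Within NMP cells alone and within PSM cells alone, Cdkn1a, Phlda3, Bbc3 and Mdm2 kept their calls, with Cdkn1a at -0.38 and -0.41. Phases were assigned by the authors from lists of other genes.

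Of 23 further targets 7 were lower in G2M and 0 higher, beside 14.9% of all genes called lower and 13.3% called higher. Among the lower ones were Btg2 (-0.37 ± 0.06) and Ddit4 (-0.34 ± 0.05). Other inhibitors of cyclin-dependent kinases went both ways. Cdkn1b, which encodes p27, was higher in G2M by 0.66 ± 0.09 and Cdkn2d by 0.64 ± 0.06, whereas Cdkn1c, which encodes p57, was lower (-0.24 ± 0.04).

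The question whether the targets vary together from cell to cell was put by dividing the cells. Each cell was thinned to 5000 UMIs, and every cell with at least 1 Cdkn1a UMI was matched with a cell without any from the same library and cluster, so that the cells of both kinds had the same depth, library and cluster. This gave 725 to 2902 cells of each kind in each of the 5 pools, and 20 cells with Cdkn1a found no partner. Cdkn1a made the division and is not tested.

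In cells with a Cdkn1a UMI, 5 of the 7 other members were higher and 0 were lower, beside 1.37% of all genes called higher. Phlda3 had 123, 110, 170, 149 and 170 CPM in cells with Cdkn1a, against 65.0, 48.8, 84.4, 87.1 and 132 CPM in cells without, in the pool order given above for the phases. Its change was 0.84 ± 0.05 (adjusted p = 1.21e-14), rank 2 of 12256 genes by p. Ccng1 had 205, 211, 174, 151 and 198 CPM with Cdkn1a, against 124, 132, 102, 113 and 153 CPM without. Its change was 0.61 ± 0.04 (adjusted p = 7.87e-14, rank 4). Both genes were higher in 5 of 5 pools, least so in whole replicate 2 at 96 h, and levels in cells without Cdkn1a of some pools overlapped those in cells with Cdkn1a of others.

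Bbc3 had 51.1, 43.6, 58.6, 41.3 and 34.2 CPM in cells with Cdkn1a, against 33.7, 29.2, 39.8, 28.8 and 24.1 CPM in cells without (0.55 ± 0.05, adjusted p = 1.19e-10, rank 6). Zmat3 had 59.4, 81.9, 57.2, 56.6 and 86.1 CPM with Cdkn1a, against 44.2, 60.4, 43.1, 42.3 and 60.4 CPM without (0.43 ± 0.04, adjusted p = 1.32e-09, rank 13). Mdm2, the feedback gene, had 46.9, 47.2, 56.3, 50.2 and 45.0 CPM with Cdkn1a, against 41.2, 40.0, 44.5, 41.4 and 35.3 CPM without. All 3 genes were higher in 5 of 5 pools, and for Mdm2, whose change was the smallest of those that passed, the ranges did not overlap (0.29 ± 0.04, adjusted p = 3.33e-05, rank 65).

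Trp53 mRNA and Pmaip1 did not pass. Trp53 had 199, 206, 228, 216 and 210 CPM in cells with Cdkn1a, against 188, 194, 218, 204 and 221 CPM in cells without (0.05 ± 0.03, adjusted p = 0.463). It was higher in 4 of 5 pools, and an approximate interval of 2 SE on either side of its change stayed under the value of each of the 5 members that rose. Pmaip1 rested on few reads, with 12 to 55 UMIs in cells with Cdkn1a and 28 to 56 UMIs in cells without, and changed by -0.10 ± 0.16 (adjusted p = 0.897).

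**Figure D3:**
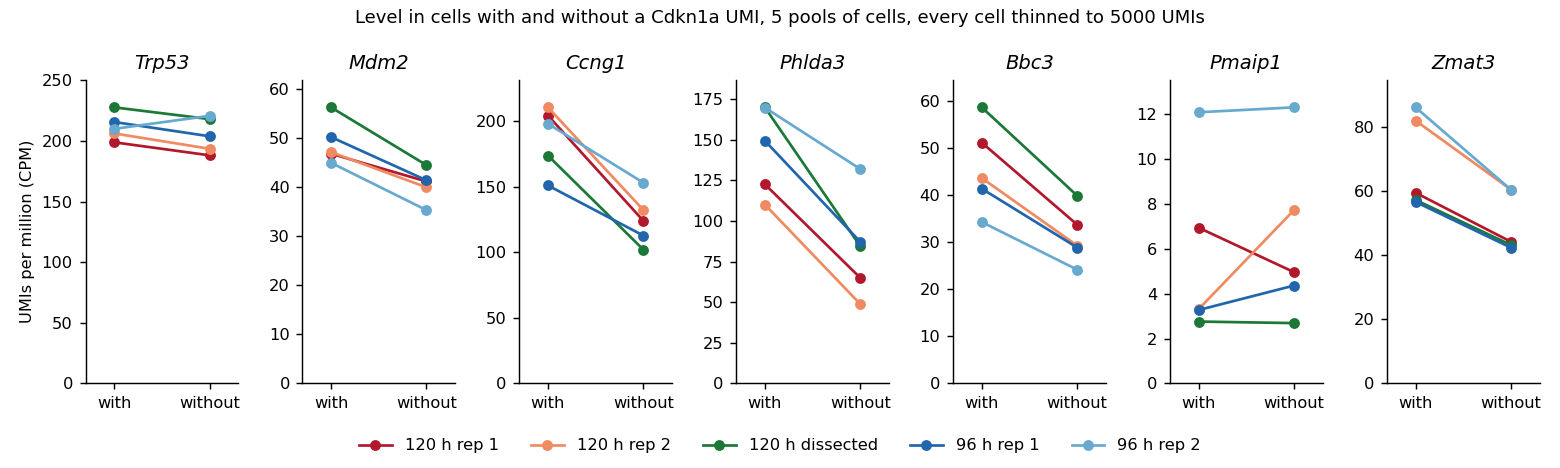
Level in CPM (vertical axis) of the other p53 target genes in cells with and cells without a Cdkn1a UMI, matched by library and cluster and thinned to 5000 UMIs. Each line joins the summed cells of 1 of the 5 pools. Phlda3, Ccng1, Bbc3, Zmat3 and Mdm2 were higher in cells with Cdkn1a in 5 of 5 pools, while Trp53 was higher in 4 of 5 and Pmaip1 in 2 of 5.

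Further targets of p53 rose with Cdkn1a as well. Of 20 further targets tested, 13 were higher and 0 lower, with a median of 0.37 beside -0.0042 over all genes. Over all genes 1.37% were called higher and 0.718% lower. The largest changes were those of Trp53inp1 (1.01 ± 0.08), Eda2r (0.89 ± 0.13), Tnfrsf10b (0.80 ± 0.12), Plk2 (0.78 ± 0.08) and Pidd1 (0.62 ± 0.09), where Eda2r and Tnfrsf10b encode death receptors and Pidd1 an adaptor that activates caspases. The 3 most abundant of these targets rose less, Aen by 0.35 ± 0.04, Ei24 by 0.24 ± 0.03 and Bax by 0.21 ± 0.03.

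Of 16 regulators and relatives of p53, 2 were higher: Cdkn2a, which encodes Arf, an inhibitor of Mdm2 (0.46 ± 0.09), and Rpl11, a ribosomal protein that can bind Mdm2, by only 0.016 ± 0.0035. Among 16 genes of the BCL2 family and caspases 0 passed in edgeR and 4 had an unadjusted p under 0.05, beside 11.1% of all genes. Of 9 immediate early genes, which respond to dissociation, 0 passed and 2 had an unadjusted p under 0.05, and of 3 other inhibitors of cyclin-dependent kinases 0 passed and 0 had an unadjusted p under 0.05. The lists other than the 8 members were not counted in DESeq2.

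The mitochondrial share had medians of 1.87% to 2.51% in cells with Cdkn1a and 1.88% to 2.53% in cells without. The G2M share was 34.0% to 41.2% in cells with Cdkn1a and 38.5% to 44.5% in cells without, lower with Cdkn1a in 4 of 5 pools. Within G1 cells alone Phlda3, Ccng1, Bbc3 and Zmat3 kept their calls, while Mdm2, at 0.27 ± 0.09, did not (adjusted p = 0.118), nor did it in DESeq2, at 0.28 (adjusted p = 0.0732).

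The same division was repeated within groups of clusters, chosen after the data had been seen. Phlda3 was higher with Cdkn1a by 0.67 in NMP cells, 1.00 in PSM cells, 1.36 in Determination front and somite cells and 1.01 in spinal cord cells. Ccng1 was higher by 0.45, 0.83, 1.13 and 0.66 in the same order of classes, and Bbc3 by 0.37, 0.76, 1.00 and 0.58, and all passed. Zmat3 was higher by 0.45, 0.68 and 0.61 in the first of these classes and by 0.35 in spinal cord cells, where it did not pass (adjusted p = 0.0763). Mdm2 passed in spinal cord cells (0.49, adjusted p = 0.00141) and did not pass in NMP cells (0.22, adjusted p = 0.239), PSM cells (0.37, adjusted p = 0.186) or Determination front and somite cells (0.24, adjusted p = 0.523). Whether the sizes differ between classes was not tested.

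By single cluster, without a test, the log2 ratio of Phlda3 lay between 0.35 in NMPs B and 1.65 in Determination front, that of Ccng1 between 0.29 in NMPs A and 1.22 in Determination front, and that of Bbc3 between 0.21 in NMPs C and 1.68 in Somite B. Over the 10 clusters with at least 100 cells of each kind, these 3 genes and Zmat3 were higher with Cdkn1a in every cluster. Mdm2 was higher in all of them except Somite A, where the ratio was -0.08.

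**Figure D4:**
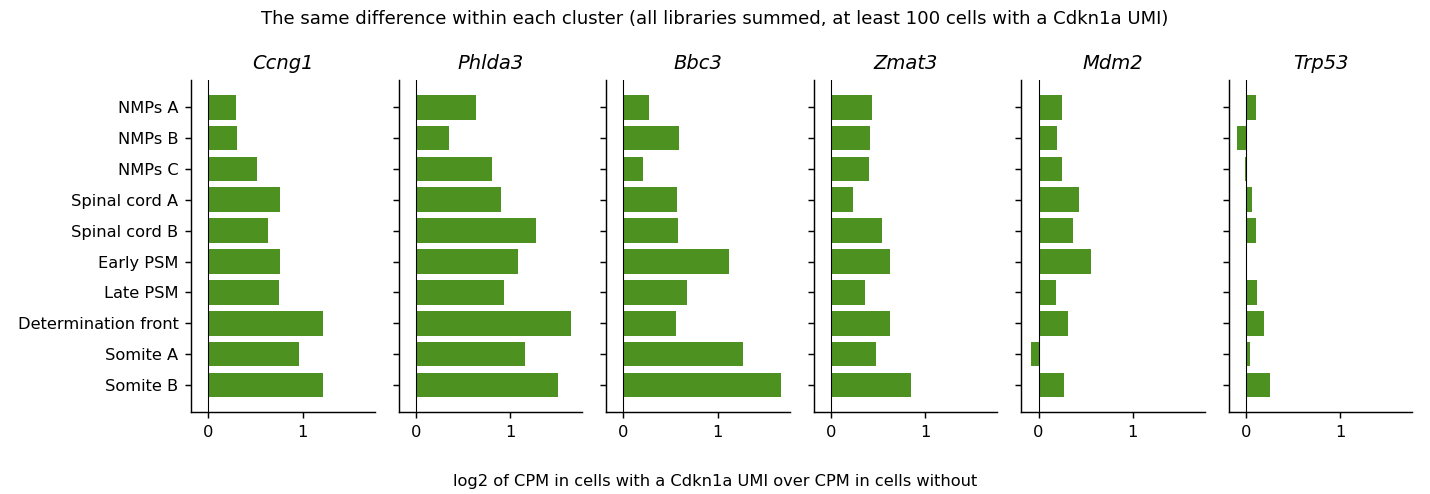
The log2 ratio of CPM in cells with a Cdkn1a UMI over cells without (horizontal axis) for each cluster with at least 100 cells of each kind (vertical axis), all pools summed, with no error bars because no test was made. Phlda3, Ccng1, Bbc3 and Zmat3 have positive bars in all 10 clusters, and Mdm2 has a negative bar in Somite A. Trp53 has negative bars in NMPs B (-0.095) and NMPs C (-0.013) and none in Early PSM.

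The division was also made by other genes, again after the data had been seen. By a Ccng1 UMI, with 1012 to 4242 cells of each kind in a pool, 5 of the 7 other members were higher, beside 0.917% of all genes. Cdkn1a was higher by 0.69 ± 0.04 (adjusted p = 3.53e-19, rank 2), Phlda3 by 0.53 ± 0.04 (adjusted p = 4.35e-16, rank 5), Zmat3 by 0.37 ± 0.04, Bbc3 by 0.31 ± 0.05 and Mdm2 by 0.22 ± 0.04 (adjusted p = 0.000572). Trp53 (0.0042 ± 0.040) and Pmaip1 (-0.11 ± 0.14) did not pass. Phlda3, Zmat3, Bbc3 and Mdm2 thus rose in both divisions, which share cells.

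By a Trp53 UMI, with 871 to 4284 cells of each kind, 0 of the 7 others passed in edgeR, beside 0.00776% of all genes, of which 620 had an unadjusted p under 0.05. Cdkn1a came closest, at 0.15 ± 0.03 with an adjusted p of 0.133 and rank 6 of 12883 genes. Phlda3 followed, at 0.095 ± 0.032 with an adjusted p of 0.911 and rank 75. In this division 6960 cells with Trp53 found no partner without it, because most cells held the transcript. By a UMI of Cdkn1b, the inhibitor gene that is not among the members, 0 of 6 members tested passed, beside 0.742% of all genes, with changes between -0.11 ± 0.08 for Phlda3 and 0.10 ± 0.11 for Mdm2. This division held only 141 to 590 cells of each kind, and Pmaip1 fell below its filter. DESeq2 was not run for these divisions.

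Over the 30 sums of a cluster in a library with at least 50 cells, which share libraries, depth and chemistry, the levels of Cdkn1a and Phlda3 had a Pearson r of 0.825 (on log2 of CPM plus 5), Ccng1 and Zmat3 0.818 and Ccng1 and Cdkn1a 0.798. Mdm2 and Zmat3 had an r of -0.452, a pair that also went opposite ways between the batches. Trp53 and Cdkn1a had an r of 0.627. Among 5760 genes of at least 20 CPM, Phlda3 was the gene most like Cdkn1a, followed by Hoxb9 (0.822) and Arid3b (0.819). Those most like Phlda3 were Etv4 (0.911), Rarg (0.897) and Cdx2 (0.893), and those most like Ccng1 were Hoxb9 (0.839), Hprt and Set.

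For Trp53 the closest were Cfap298 (0.750), Dyrk3 and Rcc2, for Mdm2 Mrpl54 (0.850), Pam16 and Ube2m, for Bbc3 Zfp706 (0.810), Thyn1 and Exosc7, and for Zmat3 Ncl (0.874), Nip7 and Canx. Apart from Phlda3 for Cdkn1a, no member was among the 3 genes most like another. In the division by Cdkn1a given above, whose cells were matched by library and cluster, Phlda3 and Ccng1 ranked 2 and 4 of all genes. Those ranks are by p and not by r, so they are not the same measure.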

How the data were processed

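Single-cell RNA-seq of wild-type stembryos was given as 1 table of UMI counts per gene and cell, with 4 whole-stembryo libraries and 2 dissected parts. The counts were deposited by the authors without normalization, as whole numbers. Per the submitters' processing notes, the authors ran Cell Ranger 6.0 on the mm10 build and then filtered and annotated the cells in Seurat 4.0.2. The deposited annotation also gave the percent of mitochondrial UMIs and cell cycle scores, which the authors computed per cell in Seurat. The study's methods name a modified Ensembl annotation. Clusters and cell cycle phases were the authors' deposited annotation, no doublet caller was run here, and every deposited cell was used.

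Counts were summed over cells of a library, class, cluster or phase (sums of at least 20 cells) and tested with edgeR 4.0.16 in R 4.3.3 (quasi-likelihood, TMM, filterByExpr, two-sided, Benjamini-Hochberg over all genes tested, threshold 0.05). DESeq2 1.42.0 was an alternative. Anterior and posterior parts were summed into 1 dissected pool for tests between clusters. CPM are UMIs scaled to 1000000 per sum, without TMM factors, and intervals are exact Poisson intervals at 95%, which cover counting error only. For the division of cells, each cell was thinned to 5000 UMIs, which left out 0 to 234 shallower cells of a library, and partners were drawn with a fixed seed.

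Whole libraries with the same replicate number shared a batch. Their deviations from the group means correlated (r of 0.567 in whole libraries, 0.541 in NMP cells and 0.429 in PSM cells), so fits with the replicate number as a block are given where they change a call. Nothing in the labels tells if replicates came from separate cultures, so p-values measure the spread between these libraries alone. For the steps between clusters, that spread was estimated over all clusters in the fit and not over the compared ones alone.

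The named genes were all 8 members and, from the other lists, counts plus the genes past the test (at most the 5 with the largest change) and the 3 of highest mean CPM. The members and lists were chosen with earlier results of these data known. The comparisons of Spinal cord B with A and Somite B with A, and the divisions by Trp53, Ccng1 and Cdkn1b and within groups of clusters, were added after seeing the data. The whole-library time fit, the phase fit and the fit of the difference between classes were run on simulated data without differences between pools or batches. The other fits were not.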

Additional observations from a re-analysis of the deposited data

Results flagged for a closer look

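The time change of Cdkn1a differed between PSM and NMP cells in an edgeR interaction test, by 0.44 ± 0.10 on the log2 scale with an adjusted p of 0.0297 over 2 libraries at 120 h and 2 at 96 h. In PSM cells Cdkn1a was higher at 120 h in 2 of 2 same-numbered pairs, with 92.2 and 110 CPM at 120 h, against 84.6 and 74.2 CPM at 96 h, and in NMP cells it was higher in 1 of 2 pairs, with 113 and 129 CPM at 120 h, against 150 and 114 CPM at 96 h. The clusters that made up each class differed between the times and, for NMP cells at 96 h, between the replicates, and the part of this in the result was not tested. Over its other settings the adjusted p lay between 0.00690 and 0.436. No group held the number of libraries that a test for a library standing apart needs, so none was made.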

How the results depend on the processing

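With 2 or 3 libraries or pools a side, the counts of called genes moved with the processing more than the members' changes did. For 120 h against 96 h in whole libraries, 153 genes were called (100 to 401 with each library left out, 1199 without the filter, 1155 by DESeq2, 3088 with the replicate block). In NMP cells 1 gene was called (0 to 292 on leaving out a library, 1010 without the filter, 446 by DESeq2, 1122 with the block) and in PSM cells 52 (23 to 546, 528, 169 and 828 under the same settings). The difference between these classes gave 232 genes (44 to 418 on leaving out a library, 414 without the filter, 113 by DESeq2). Spinal cord A against NMPs C gave 232 (83 to 495 on leaving out a pool, 358 with RLE factors, 387 with none, 416 by DESeq2, 8 with no block). The other cluster steps gave 2305 (1495 to 1652 on leaving out a pool, 728 with no block) for Late PSM against NMPs C, 4760 (2984 to 3921, 1537) for Somite A against Late PSM, 1113 (419 to 1274, 192) for Spinal cord B against A and 720 (314 to 717, 44) for Somite B against A. The phases gave 4354 (3002 to 3952 on leaving out a pool, 115 with no block, 2806 in NMP cells alone, 2042 in PSM cells alone). The division by Cdkn1a gave 256 (113 to 244 on leaving out a pool, 70 by DESeq2, 0 with no block, 137 at 3000 UMIs, 106 in G1 cells alone, 84 in NMP, 62 in PSM, 85 in Determination front and somite and 40 in spinal cord cells). Without the pool as a block no member passed in the division or the phases, nor in the steps of Spinal cord B over A (adjusted p of 0.420 to 0.830 for those called) and Somite B over A (0.588 to 0.974), and in Somite A over Late PSM Phlda3 (0.128) and Bbc3 (0.310) did not pass.

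Changes of sign met only values that had not passed. In whole libraries, leaving out a library gave -0.28 to 0.14 for Mdm2, -0.21 to 0.058 for Ccng1, -0.23 to 0.31 for Bbc3, -0.80 to 0.65 for Pmaip1 and -0.36 to 0.036 for Zmat3, no factors gave 0.0022 for Mdm2 and the UMI limit -0.0017 for Bbc3. In NMP cells the ranges were -0.26 to 0.11 for Mdm2 (0.0093 with no factors), -0.021 to 0.22 for Ccng1, -0.48 to 0.054 for Cdkn1a, -0.033 to 1.22 for Pmaip1 and -0.34 to 0.13 for Zmat3. In PSM cells they were -0.26 to 0.23 for Mdm2 (-0.0054 with RLE, -0.032 without the filter, -0.010 by DESeq2, -0.021 with the block), -0.18 to 0.043 for Ccng1 (0.042 with no factors), -0.33 to 0.042 for Phlda3 (0.0018 with no factors), -0.22 to 0.44 for Bbc3 (-0.0099 with the block) and -0.17 to 0.14 for Zmat3 (0.090 with no factors). The class difference ranged over -0.043 to 0.11 for Mdm2 and -0.034 to 0.21 for Zmat3. For Spinal cord A against NMPs C the ranges were -0.0072 to 0.21 for Ccng1, -0.088 to 0.067 for Cdkn1a (0.0022 with RLE, 0.0015 without the filter, 0.0057 with the UMI limit), -0.036 to 0.10 for Phlda3 (-0.012 with no factors) and -0.13 to 0.067 for Zmat3 (-0.079 with no factors, -0.038 by DESeq2, -0.076 with no block, -0.011 with the UMI limit), and Trp53 was -0.015 with no factors. Ccng1 ranged over -0.21 to 0.047 for Somite A against Late PSM, and between the phases it was 0.018 with no factors and 0.050 in NMP cells alone. Pmaip1 ranged over -0.26 to 0.023 in the division and was 0.086 at 3000 UMIs.

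The median share of cells with a Cdkn1a UMI over cluster sums was 27.9% after thinning and 46.6% without it. The causes of these shifts were not tested. At this depth Pmaip1 rested on few UMIs in most sums.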

Other observations

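Cells in phase S were not part of a comparison. They held 123, 143, 90.4, 110 and 173 CPM of Ccng1 in whole replicates 1 and 2 at 120 h, the dissected pool and whole replicates 1 and 2 at 96 h, against 151, 158, 113, 128 and 168 CPM in G1 cells, lower in 4 of 5 pools. Cdkn1a had 98.6, 92.5, 86.3, 143 and 113 CPM in S cells, against 94.9, 106, 95.3, 124 and 120 CPM in G1 cells, with no common direction.

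At 96 h the progenitor clusters of whole replicate 2 stood side by side in 1 library. NMPs B (1632 cells) held 118 CPM of Cdkn1a and 154 CPM of Phlda3, and NMPs A (315 cells) held 91.1 CPM of Cdkn1a and 127 CPM of Phlda3. In whole replicate 1 at 96 h the smaller NMPs B cluster (43 cells) held 142 CPM of Cdkn1a and 119 CPM of Phlda3, and NMPs A (2765 cells) held 150 CPM and 129 CPM. With 43 cells behind the NMPs B values of whole replicate 1 and no test, the order of the clusters in that library was not established. Early PSM held 84.4 and 74.5 CPM of Cdkn1a in whole replicates 1 and 2 at 96 h. Endoderm of the dissected pool held 89.4 CPM of Cdkn1a and 97.2 CPM of Phlda3.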
